A study of Caenorhabditis elegans with 4 samples.

Results

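NFYA-1 peaks on the right part of chromosome III of Caenorhabditis elegans are described here, in late embryos. NFYA-1 is the A subunit of NF-Y, a transcription factor made of 3 different subunits. A peak belonged to the right part when its midpoint lay at base 9000000 of build WS180 or beyond, and 429 of the 5320 peaks in the combined list did so (8.06%, on 4.79% of the mapped span). The assay was chromatin immunoprecipitation followed by sequencing (ChIP-seq), with 2 ChIP libraries and, from lysate kept aside, 2 input libraries. All 4 libraries came from strain OP404, grown at 20 °C, which carries unc-119(ed3) III and the integrated transgene wgIs404, a bombarded nfya-1::TY1-GFP-3xFLA construct with the rescuing marker unc-119(+). The labels give hermaphrodite worms and 1 transgenic line, crosslinking in 2% formaldehyde, and antibodies against green fluorescent protein (GFP) to collect the tagged factor. Whole late embryos hold many tissues, so a peak cannot be given to one of them. Other regions served for comparison: III below 9 Mb (707 combined peaks), the 4 other autosomes I, II, IV and V together (3471 peaks), and the whole list.

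NF-Y is known for binding the CCAAT box, a short sequence common in promoters. Its B and C subunits pair through folds like those of histones, and the A subunit joins them and contacts the CCAAT bases. In C. elegans the NF-Y complex is known as a repressor of the Hox gene egl-5 and the T-box gene tbx-2. Autosomes of this worm have a gene-rich centre and arms with more recombination, and chromosome III beyond 9 Mb runs from its centre into its right arm.

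NFYA-1 peaks were denser on the right part of III than on the other autosomes, in the combined list and in both replicates. The combined list had 89.9 peaks per Mb on the right part of III, against 50.6 on the other autosomes, which is 1.78 times as many (exact 95% interval 1.60 to 1.97; two-sided exact binomial test, adjusted p = 3.32e-25 over 6 tests). The replicate 1 list had 57.6 peaks per Mb on the right part and 26.7 on the other autosomes, a ratio of 2.16 (1.90 to 2.45; exact binomial, adjusted p = 8.19e-27). The replicate 2 list had 67.7 and 31.1 peaks per Mb in the same regions, a ratio of 2.17 (1.93 to 2.44; exact binomial, adjusted p = 1.47e-31). These intervals and tests count peaks, which are not independent replicates and lie in clusters. The p-values are therefore too small, and the agreement of 2 libraries is the only measure of their spread. The right part was also chosen with earlier results of these data known, which favours a high density there. The density tests here and below therefore describe the chosen part. They cannot decide whether a part chosen without that knowledge would be denser.

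Inside chromosome III the right part exceeded the left by less, and in the combined list that call depended on which sections were counted. There were 89.9 combined peaks per Mb on the right, against 78.8 on the left (ratio 1.14, exact interval 1.01 to 1.29; exact binomial, adjusted p = 0.0315). In replicate 1 the densities were 57.6 on the right and 45.6 on the left (ratio 1.26, 1.08 to 1.48; exact binomial, adjusted p = 0.00352). In replicate 2 they were 67.7 on the right and 53.2 on the left (ratio 1.27, 1.10 to 1.47; exact binomial, adjusted p = 0.00141). Leaving out the densest section of the right part alone, from 12 to 13 Mb, lowers the ratio by construction. The right part then had 84.6 combined peaks per Mb and the ratio was 1.07 (0.938 to 1.23; exact binomial p = 0.289). Replicate 1 alone gave 1.08 (0.905 to 1.29) and replicate 2 alone 1.12 (0.954 to 1.32), and all these intervals hold 1. Taking the densest 1 Mb section out of each side left the combined ratio nearly as it was, at 1.13, but the test no longer passed (0.982 to 1.29; exact binomial p = 0.0832), and counting whole 1 Mb sections only gave 1.12 (0.986 to 1.28; exact binomial p = 0.0788). Against the other autosomes the ratio without that stretch was still 1.67 (1.49 to 1.88) in the combined list.

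The ratio to the other autosomes was also taken by presence in the replicates and by strength, with no test between the ratios. Combined peaks found in both replicates had 50.7 per Mb on the right part of III, against 22.9 on the other autosomes, a ratio of 2.22 (exact interval 1.93 to 2.54). Those found in no replicate had 20.1 per Mb, against 16.9, a ratio of 1.19 (0.956 to 1.47), whose interval holds 1. For the 500 strongest combined peaks the values were 14.5 per Mb, against 4.14, a ratio of 3.49 (2.65 to 4.56). The right part held 69 of those 500, or 16.1% of its 429 peaks, where 9.40% of all combined peaks are among the 500 strongest by construction. Of these 69, 31 lay from 12 to 13 Mb. Without that stretch the share was 11.9% (38 of 319 peaks), against 10.75% on the left of III (76 of 707). Ratios to the left of III were 1.29 for peaks in both replicates (1.09 to 1.53) and 0.940 for those in none (0.728 to 1.21). For the 500 strongest the ratio to the left was 1.71 (1.21 to 2.40).

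Along the right part, peak number rose from section to section over the first 4 sections of 1 Mb, and the last held fewer. The section next to the boundary on the left of III held more than the first of these. It had 107 combined, 62 replicate 1 and 75 replicate 2 peaks. In the combined list there were 77 peaks from 9 to 10 Mb, 84 from 10 to 11 Mb, 97 from 11 to 12 Mb and 110 from 12 to 13 Mb. Replicate 1 held 40, 46, 65 and 89 peaks in the same sections, and replicate 2 held 49, 58, 74 and 98. The remaining 771 kb, up to the last peak at base 13771375, held 61 combined, 35 replicate 1 and 44 replicate 2 peaks, or 79.1, 45.4 and 57.04 per Mb. All 4 full sections lay above the mean of the 63 full sections on the other autosomes, which was 50.9 ± 15.3 in the combined list (SD over sections). Together they held 368 combined peaks. Over the 51 runs of 4 neighbouring full sections on the other autosomes, the count ran from 91 to 294, with a median of 206. Runs on the left of III were not part of this comparison. Of the 8 full sections there, 7 also exceeded 50.9 combined peaks. Those from base 3000001 to 7000000 held 93, 109, 88 and 73, so crowded neighbouring sections were not particular to the right part.

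**Figure D1:**
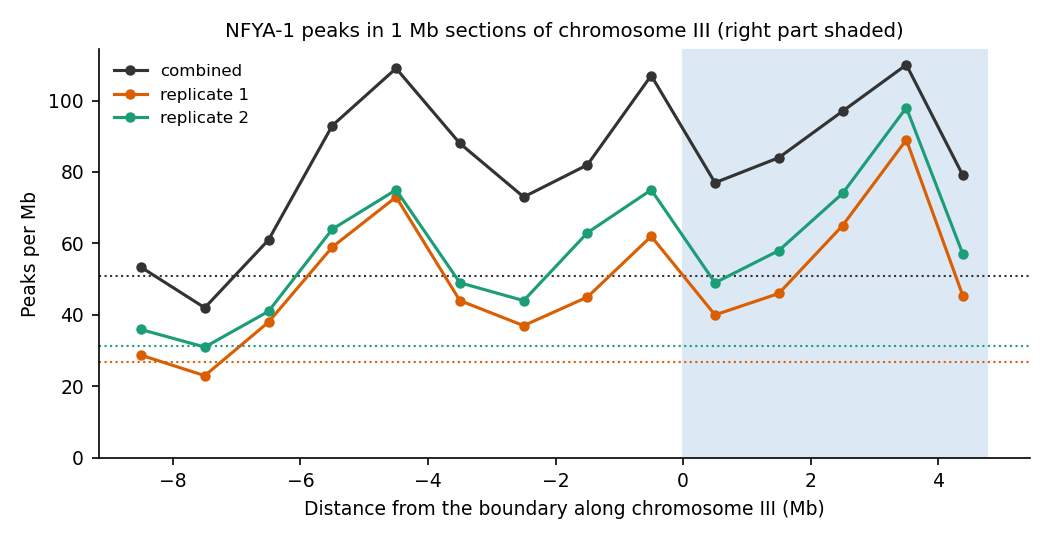
Peaks per Mb (vertical axis) in 1 Mb sections along chromosome III, placed by distance from the 9 Mb boundary in Mb (horizontal axis), for the combined list and each replicate list. Shading marks the right part and dotted lines the mean over full sections of the other autosomes; each list peaks in the 4th shaded section, with 110 combined, 89 replicate 1 and 98 replicate 2 peaks.

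At a finer scale no full 100 kb section of III was empty in the combined list, on the right part or on the left. Each of its 47 full sections of 100 kb held 2 to 19 combined peaks, with a median of 9. The median was 7 for the 89 sections on the left of III and 5 for the 680 on the other autosomes, of which 28 were empty (4.12%). In the replicate lists the medians on the right part were 5 and 6, with 1 and 2 empty sections. A 200 kb stretch from 11800001 to 12000000, picked after its counts were seen, had 35 peaks in the combined list, 26 in replicate 1 and 31 in replicate 2.

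The strongest region of the right part ran from 13060702 to 13063149, 2448 bp wide. Strength is given as the q-value that the authors' peak caller attached to each peak, or its −log10. It depends on depth as well as enrichment, so it ranks peaks within a list. For this region the combined list gives 1.47e-137, against 5.21e-58 for replicate 1 and 4.91e-49 for replicate 2. Each replicate list split the region, and its value is that of the strongest part. This part ran from 13061947 to 13063104 in replicate 1 and from 13062038 to 13063121 in replicate 2. Another replicate 1 part, from 13060966 to 13061399, had a −log10 q of 14.4, against 19.3 in replicate 2. The whole region ranked 22nd of all combined peaks. Its neighbours were strong as well. The peak from 13070209 to 13072216 had 2.40e-96 in the combined list and the one from 13067842 to 13068775 had 1.62e-72, so that 3 of the 21 strongest peaks of the right part lay within 11.5 kb. Between and beside them lay 3 weak peaks, 1 in replicate 2 alone and 2 in no replicate. A gap of 58291 bp with no peak preceded this group.

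Second in strength was the region from 11934916 to 11937171, 2256 bp wide (combined q of 4.41e-130). In replicate 1 it was the strongest of the right part (1.14e-84), while replicate 2 gave 8.04e-62. The third, from 11828965 to 11829921 (1.07e-126), had 6.22e-73 in replicate 1. It led the right part in replicate 2, with 2.25e-63. Both lie in the crowded 200 kb described above.

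The fourth ran from 13200996 to 13202189 (combined q of 7.76e-110) and the fifth from 10096294 to 10096966 (3.55e-106). The sixth, from 10758912 to 10759444, was 533 bp wide (4.21e-102). Among the 10 strongest, 3 lay from 12 to 13 Mb. They ran from 12269686 to 12270587 (1.40e-94), from 12344790 to 12345236 (1.55e-91) and from 12612286 to 12613858 (5.90e-87). From 9 to 10 Mb the strongest region spanned 9570674 to 9571149 (combined 9.03e-86; replicates 1.00e-54 and 1.43e-49). The 10 strongest were 447 to 2448 bp wide, where the median of all right III peaks was 332 bp.

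**Figure D2:**
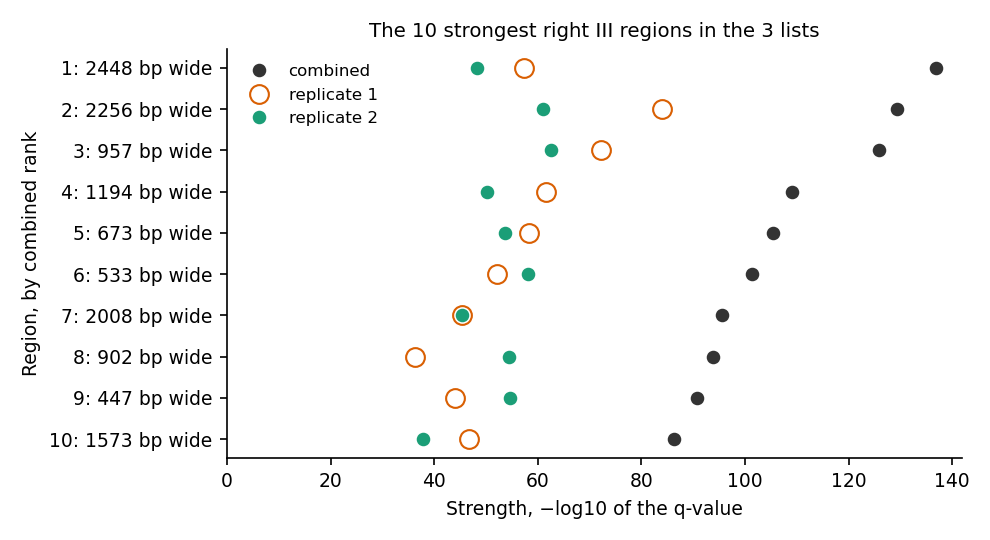
Strength as −log10 of the q-value (horizontal axis) of the 10 strongest right III regions found in both replicates (vertical axis, by combined rank, with combined width), in the combined list and each replicate list. All 10 stand at 86.2 or more in the combined list; replicate 1 spans 36.3 to 83.9 and replicate 2 spans 37.8 to 62.6.

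Most combined peaks of the right part of III were found in both replicates. With an overlap of at least 1 bp, 242 of 429 right III peaks overlapped a peak of each replicate (56.4%, exact interval 51.6 to 61.2), where the share over all combined peaks was 46.4%. The share was 49.8% on the left of III (46.04 to 53.54) and 45.2% on the other autosomes (43.5 to 46.8). A further 24 right III peaks were found in replicate 1 alone (5.59%, against 7.39% of all peaks) and 67 in replicate 2 alone (15.6%, against 14.1%). The other 96 were found in neither (22.4%, against 32.1%). The combined list was made from the same libraries, so its overlap with them is no independent evidence, and shares were not tested.

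The replicates also recovered each other's peaks. Of 275 replicate 1 peaks on the right part, 249 overlapped a replicate 2 peak (90.5%, exact interval 86.5 to 93.7), where 85.7% of all replicate 1 peaks did. Of 323 replicate 2 peaks there, 249 overlapped a replicate 1 peak (77.1%, 72.1 to 81.6), where 75.0% of all replicate 2 peaks did. The unmatched peaks were weak. The median −log10 q was 4.11 for the 26 unmatched peaks of replicate 1, against 9.30 for the matched ones. It was 4.25 for the 74 unmatched peaks of replicate 2, against 10.3 for the matched ones.

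**Figure D3:**
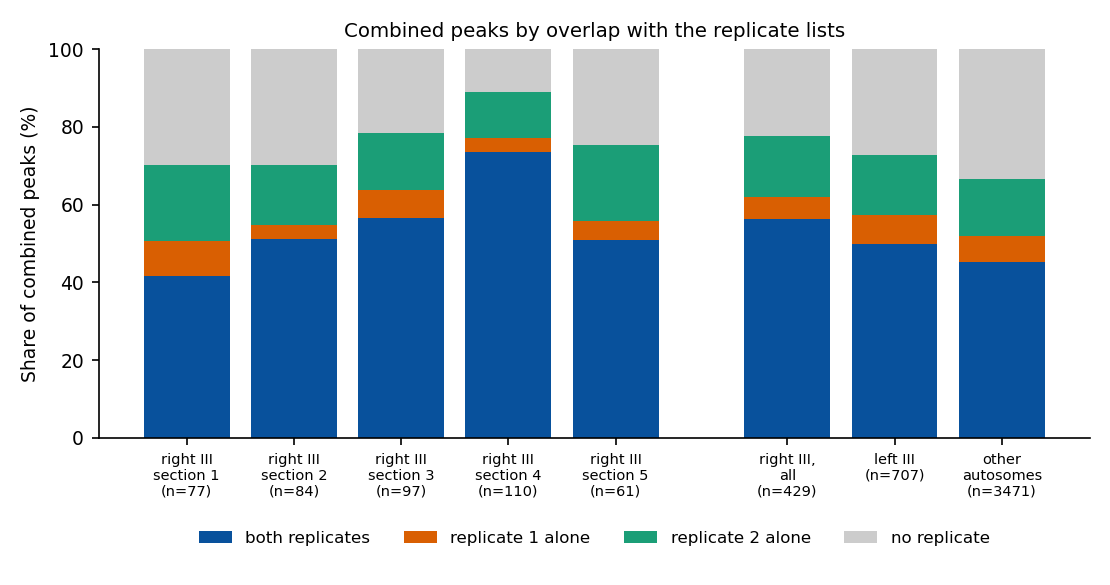
Share of combined peaks in percent (vertical axis) found in both replicates, in 1 alone or in none, for sections of 1 Mb of the right part in order from 9 Mb (the last is shorter), and for the whole right part, the left part and the other autosomes. The fourth section, 12 to 13 Mb, has the highest share in both replicates of the right III sections, 73.6%, and the first the lowest, 41.6%.

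At a given strength, the shares of right III peaks in both replicates lay close to those elsewhere. Strength and presence come from the same libraries, so a given strength largely fixes the share, and no conclusion is drawn from this closeness. The whole combined list was split by rank into 3 equal parts. In the strongest part, 185 of 189 right III peaks were in both replicates (97.9%), against 98.8% on the left and 98.2% on the other autosomes. In the middle part the shares were 40.4% on the right, 41.6% on the left and 38.8% on the other autosomes, and in the weakest they were 1.92%, 2.87% and 1.10%. Of right III peaks, 44.1% were in the strongest part, against 34.4% on the left and 32.4% on the other autosomes. Whether this bears on the share in both replicates was not tested. Of the 429 peaks, 254 (59.2%) were among the 2660 strongest of the list, where 50.0% of all peaks are. The median −log10 q was 10.5 on the right, against 8.51 on the left, 8.07 on the other autosomes and 8.15 over the whole list.

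The best right III peak that only replicate 1 supported ran from 12919748 to 12920189, with 7.40e-15 in the combined list and 2.22e-10 in replicate 1. For replicate 2 alone it ran from 13529963 to 13530453, with 1.96e-13 and 7.82e-05. The strongest peak without support in either replicate ran from 10819076 to 10819903 (combined q of 6.32e-09). At the other end, the weakest peak still found in both spanned 9747139 to 9747448 (5.73e-06). Conversely, 1 replicate 1 peak and 7 replicate 2 peaks of the right part overlapped no combined interval. None of these 8 was in the other replicate, and the smallest q among them was 7.69e-06.

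Median width on the right part was close to that elsewhere. The median combined peak was 332 bp wide (quartiles 261 and 461), against 327 bp on the left of III (242 and 441), 351 bp on the other autosomes (277.5 and 485) and 352.5 bp in the whole list. In replicate 1 the medians were 336 bp on the right, 331 bp on the left and 349 bp on the other autosomes. In replicate 2 they were 299, 304 and 332 bp in that order. Of the 429 peaks, 20 were wider than 1000 bp (4.66%), where 3.72% of all combined peaks were. The share was 2.12% on the left of III (15 of 707) and 3.49% on the other autosomes. In replicate 1 it was 4.73% on the right and 2.20% on the left, and in replicate 2 it was 2.79% and 1.47%. These shares were not tested. Broad peaks were the stronger ones (Spearman's rho of 0.701 across the 429 peaks, which are not independent, against 0.587 over the whole list). An exception was the third widest, from 12614160 to 12616254, which was 2095 bp wide with a combined q of 3.96e-21. The narrowest, from 11702833 to 11702837, covered 5 bp and was in no replicate. Median width was 380 bp for peaks in both replicates and 251.5 bp for those in none. In all, right III peaks covered 179 kb, or 3.74% of the right part, against 2.95% of the left and 2.14% of the other autosomes.

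Median gaps between neighbouring peaks were shorter on the right part, as its density entails. The median gap between the end of a combined peak and the start of the next was 6093 bp (quartiles 1968 and 14553), against 7084.5 bp on the left of III and 9809 bp on the other autosomes. In replicate 1 the median gaps were 9638, 11941.5 and 20540 bp in that order, and in replicate 2 they were 7664.5, 11488 and 18321 bp. Gaps over 50 kb numbered 9 of 428 on the right (2.10%), against 22 of 706 on the left (3.12%) and 322 of 3467 on the other autosomes (9.29%). The longest, of 90619 bp, followed the peak that ends at 9874771. The next, of 63998 bp, followed the one that ends at 11380750, and the third, of 58838 bp, followed the one that ends at 13466474.

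Pairs under 1000 bp apart numbered 58 of 428 (13.6%), where 10.6% of neighbouring pairs in the whole list were. The shares were 11.9% on the left and 10.6% on the other autosomes. In 22 of the 58 pairs both members were in both replicates, in 25 only 1 was, and in 11 neither was. The closest pair with full support lay 218 bp apart, a strong peak from 9764616 to 9765901 (combined q of 3.49e-69) and a weaker one up to 9766621 (1.76e-15). In the third closest, 274 bp apart, both were strong: the peak from 12155558 to 12156013 had a q of 2.11e-67 and that from 12156288 to 12156907 had 4.46e-60. Whether such pairs are separate binding events cannot be read from intervals.

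Chains of peaks under 1000 bp apart held 101 of the 429 peaks (23.5%), against 21.9% on the left of III and 19.01% on the other autosomes. They formed 32 pairs and 11 larger groups of 3 or 4 peaks. In the group from 12058327 to 12060294, 4 peaks lay within 1968 bp. The third had a q of 3.53e-33 and the first 2.28e-17, and both were in both replicates. The second was in replicate 2 alone and the fourth in neither. The group from 11865929 to 11868495 was alike, with its outer peaks in both replicates (2.68e-23 and 2.17e-12) and weaker ones between them. In the group from 10815842 to 10819903, 1 of the 4 was in both replicates.

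**Figure D4:**
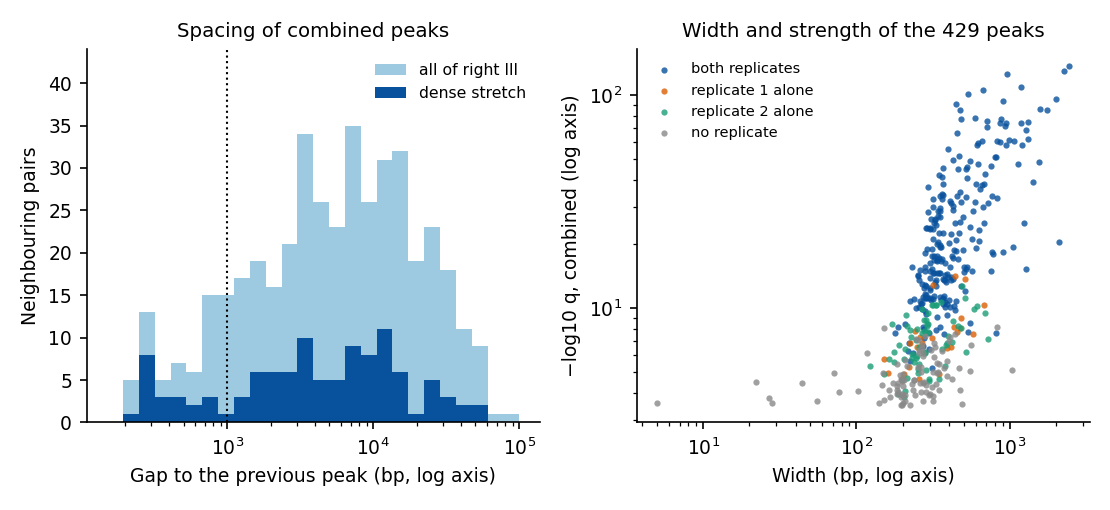
Left, number of neighbouring pairs (vertical axis) by gap in bp (horizontal log axis) for the 428 pairs of right III and those of the dense 12 to 13 Mb stretch, with a dotted line at 1000 bp; 58 pairs lie below it, 20 of them in the stretch. Right, strength as combined −log10 q (vertical log axis) by width in bp (horizontal log axis) of the 429 peaks, coloured by presence in the replicates; peaks in both replicates fill the strong end and those in no replicate reach 8.20 at most.

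The stretch from 12000001 to 13000000 held the most peaks, the highest share in both replicates and the strongest median of the right III sections. It was chosen because it is the densest, so its values are a description with no test. Of its 110 combined peaks, 81 were in both replicates (73.6%, exact interval 64.4 to 81.6), against 161 of the 319 other right III peaks (50.5%, 44.8 to 56.1). Only 12 were in no replicate (10.9%, against 26.3%). Median −log10 q was 17.4 in the stretch and 8.94 in the rest of the right part. Median width was nearly the same, at 336.5 and 330 bp. The median gap was 4458 bp, against 6360 bp in the rest. It ranked first of the full 1 Mb sections of the genome by peak number in each list, but in the combined list by little. There it held 110 peaks, against 109 from 4 to 5 Mb and 107 from 8 to 9 Mb on the left of III. In the replicate lists it held 89 and 98 peaks, against at most 73 and 75 in any section of the left.

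Within the stretch, the 100 kb from 12600001 to 12700000 were the most crowded, with 19 combined, 17 replicate 1 and 18 replicate 2 peaks. Of these 19, 15 were in both replicates. The strongest were the region from 12612286 to 12613858 named above, then 12638530 to 12639514 (combined q of 1.73e-62) and 12608042 to 12608868 (9.78e-62). The 100 kb from 12800001 to 12900000 held 6 combined peaks and 4 in each replicate, the fewest of the 10 sections. Other strong regions of the stretch ran from 12904807 to 12905288 (4.90e-78) and from 12419667 to 12420551 (8.46e-78).

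Both replicates ranked right III peaks much alike, and in the dense stretch replicate 2 was more often the stronger. Each matched replicate 1 peak was set beside the strongest replicate 2 peak it overlapped. Over 249 such pairs, Spearman's rho of −log10 q was 0.846 across peaks, and replicate 1 over replicate 2 had a median log2 ratio of -0.07. In the stretch the median was -0.18, with 29 of 84 pairs stronger in replicate 1 (34.5%), against -0.01 and 80 of 165 pairs (48.5%) in the rest of the right part. On the other autosomes it was -0.03, with 47.5% of 1579 pairs stronger in replicate 1. Counting only pairs in which each peak is the other's best match, 29 of 81 in the stretch (35.8%) were stronger in replicate 1. The region from 12269686 to 12270587 was split in replicate 1, with −log10 q of 36.3 and 9.47, against 54.4 for a single replicate 2 peak. That from 12368307 to 12369731 was split likewise, with 6.58 and 7.12 against 24.2. Both examples therefore set parts of a region beside the whole of it. These values compare 2 libraries of unknown depth and were not tested.

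**Figure D5:**
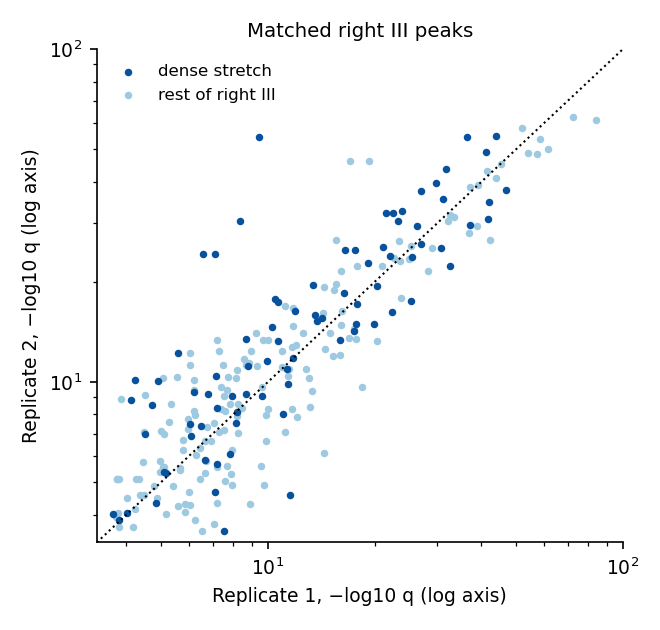
Strength as −log10 q in replicate 2 (vertical log axis) against replicate 1 (horizontal log axis) for the 249 matched right III peaks, with those of the dense 12 to 13 Mb stretch in dark blue and a dotted line at equal values. Points follow the line (rho 0.846), and 55 of the 84 dark points lie on or above it, where replicate 1 is not the stronger.

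The cut at 9 Mb fell in a region with peaks on each side. The first members inside it were a peak from 9006972 to 9007442 (combined q of 8.93e-09, in replicate 1 alone), one from 9009966 to 9010303 (2.93e-06, in no replicate) and one from 9052119 to 9052898 (9.44e-19, in both). The last 3 outside it ended at 8971873, 8982392 and 8985323, with q of 3.57e-10, 1.22e-11 and 3.72e-15, and were in both replicates. At the far end, the last member spanned 13771110 to 13771375 (1.33e-10) and was in both replicates. Genes and sequence at these positions were not analysed here.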

How the data were processed

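In all, 3 peak lists were used. Each ChIP library has its own, and a combined one covers both. In each, PeakSeq stands as the caller and WormBase WS180 as the build, per the file headers and columns. Apart from its position, a peak has 1 deposited value, its q-value (the p-value after correction for many tests). Not given in the sources used here are the aligner, the threshold, the use of the input libraries and the making of the combined list. No read counts were used, so depth is unknown.

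Peaks were placed by midpoint, on chromosomes measured between their outermost peaks in any list. Density ratios have exact intervals from Clopper-Pearson bounds, and two-sided exact binomial tests adjusted by Benjamini-Hochberg over 2 contrasts in 3 lists. Shares have Clopper-Pearson 95% intervals, which cover counting error alone. Lists were matched by an overlap of 1 bp, taking the strongest overlapping peak. The labels do not say if the libraries are from separate cultures.

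The members and lists were chosen with earlier results of these data known. Named regions followed a rule: the 10 strongest in both replicates, the strongest of each 1 Mb section, the 5 strongest of the 12 to 13 Mb stretch, the 3 widest, the 3 longest gaps, the 3 closest pairs, and the strongest in 1 replicate or in none. Other named stretches, groups and peaks were chosen after their values were seen. The gene table at hand is for another build, so peaks were not linked to genes and no sequence was read. The density and overlap functions were tested on simulated data. Software was Python 3.11.15 with SciPy 1.17.1, NumPy 2.4.6, pandas 2.3.3 and, for plots, matplotlib 3.10.9.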

Additional observations from a re-analysis of the deposited data

How the results depend on the processing

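In all, 47 alternative values were computed for 7 results, and 28 of them led to the same reading as the value reported. Against the other autosomes, the density ratio of the right part of III lay between 1.67 and 2.72 over 9 alternatives and passed the exact test in each. Against the left of III it lay between 1.07 and 1.43 over 10, and did not pass in 3: without 12 to 13 Mb (1.07), over whole 1 Mb sections (1.12) and, chosen after seeing the data, with each side short of its densest section (1.13). Fewer peaks entered all 3 than the main comparison. The 1000 strongest combined peaks (115 right and 151 left) passed with a larger ratio, of 1.43. Why these 3 did not pass was not tested. With 1 replicate list in place of the combined one, the ratios were 1.26 and 1.27 to the left, and 2.16 and 2.17 to the other autosomes.

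Of right III combined peaks, 51.5% were in both replicates by a 50% reciprocal overlap, 50.5% without 12 to 13 Mb and 89.0% among the stronger peaks of the list. The share of replicate 1 peaks in replicate 2 was 83.6% with the reciprocal overlap, 84.4% with midpoints within 200 bp and 98.8% among stronger peaks. For replicate 2 peaks in replicate 1 it was 71.2%, 71.8% and 96.3% in the same order. Median width was 299 to 336 bp in the replicate lists, 390 bp for stronger peaks and 380 bp for peaks in both replicates. The median gap was 7664.5 to 9638 bp, 9672 bp and 10378 bp in the same order, with fewer peaks in each case. No paired analysis was possible because input libraries gave no values for these results. Weak peaks of 1 list cannot be called absent from another at unknown depth.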
